A study of Mus musculus with 10 samples.

Results

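The enzymes that write, copy and remove methyl groups on cytosine were examined in a mouse model of glioma. The 8 genes were taken by symbol from a matrix of 23230 features in 10 RNAseq libraries, and all 8 were found: Dnmt1, Uhrf1 and Uhrf2 (maintenance), Dnmt3a and Dnmt3b (de novo methylation) and Tet1, Tet2 and Tet3 (oxidation). AstroEGFR* (3 libraries) were cortical astrocytes of C57BL/6 pups at postnatal day 5, p16/p19 (Ink4a/Arf) knockout, infected with a retrovirus carrying human EGFRvIII, a constitutively active receptor written EGFR*. PT (4 libraries) were glioma propagating cells cultured from primary tumours that AstroEGFR* had formed in CD1 Nude mice, and AstroEGFR* Zfp423 (3 libraries) were AstroEGFR* that also carried a vector for the zinc finger factor Zfp423. All groups thus shared the Ink4a/Arf loss and EGFR*. The vector for Zfp423 is lentiviral in the sample labels and retroviral in the study's methods. Each library was 1 culture of passage below 10. Libraries numbered 1 to 3 belong to astrocyte batches 1 to 3. For PT, the labels give no batch, and the link is taken from the legend of a figure of the study, which also places PT4 with PT1 in batch 1, so these PT are not independent in their cells of origin. The medium of AstroEGFR* held serum, whereas that of PT held EGF and FGF2 and no serum, so the effects of tumour growth and of medium cannot be told apart.

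In mammals, Dnmt1 restores methylation on the new strand after replication, and Uhrf1 brings it to hemimethylated CpG. Uhrf2 is the paralogue of Uhrf1. Dnmt3a and Dnmt3b place methyl groups on unmethylated DNA, and the Tet enzymes oxidise 5-methylcytosine, which can then be lost by dilution or by base excision. Dnmt3b is mostly an enzyme of early development, whereas Dnmt3a remains in the postnatal brain.

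The promoters below show a feature that the choice of genes did not use. E2F factors, which act at the onset of S phase, bind sequences of the type searched here, TTTCCCGC, TTTCGCGC, TTTGCCGC and TTTGGCGC, on both strands, with no motif overlapping another in the promoters printed. Each stretch runs 5′ to 3′ on the gene's strand from 250 bases before a RefSeq start to 50 bases from it on (build GRCm38.p6), with matches in capitals. All 8 genes had such a promoter. Dnmt1 (chr9:20952574-20952873, minus strand, 1 of 3 listed starts) had 2 matches and Uhrf1 (chr17:56304063-56304362, plus strand, 1 of 2 listed starts) had 1. Hells, the chromatin remodeller that helps Dnmt enzymes reach packed DNA (chr19:38930740-38931039, plus strand), had 1. Uhrf2 (chr19:30030263-30030562, plus strand), shown as the paralogue of Uhrf1, had 0, as did the other 5 members.
Dnmt1: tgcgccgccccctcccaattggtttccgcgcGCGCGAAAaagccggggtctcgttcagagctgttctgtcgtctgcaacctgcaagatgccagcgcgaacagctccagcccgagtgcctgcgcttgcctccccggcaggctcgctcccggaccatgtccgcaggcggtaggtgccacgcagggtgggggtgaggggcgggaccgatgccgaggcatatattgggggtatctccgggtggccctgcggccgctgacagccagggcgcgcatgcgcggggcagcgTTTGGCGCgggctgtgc
Uhrf1: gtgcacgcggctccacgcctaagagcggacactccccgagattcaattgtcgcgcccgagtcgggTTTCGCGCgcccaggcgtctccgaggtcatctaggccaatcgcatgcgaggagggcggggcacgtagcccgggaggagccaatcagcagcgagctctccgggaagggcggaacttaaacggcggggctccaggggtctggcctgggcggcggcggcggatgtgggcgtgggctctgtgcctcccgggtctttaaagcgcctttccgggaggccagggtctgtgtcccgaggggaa
Hells: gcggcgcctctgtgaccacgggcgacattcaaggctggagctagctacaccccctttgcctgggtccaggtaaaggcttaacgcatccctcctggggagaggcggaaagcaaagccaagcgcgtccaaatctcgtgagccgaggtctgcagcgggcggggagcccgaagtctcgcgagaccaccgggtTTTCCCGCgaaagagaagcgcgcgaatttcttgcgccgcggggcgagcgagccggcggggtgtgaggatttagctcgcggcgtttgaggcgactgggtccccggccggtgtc
Uhrf2: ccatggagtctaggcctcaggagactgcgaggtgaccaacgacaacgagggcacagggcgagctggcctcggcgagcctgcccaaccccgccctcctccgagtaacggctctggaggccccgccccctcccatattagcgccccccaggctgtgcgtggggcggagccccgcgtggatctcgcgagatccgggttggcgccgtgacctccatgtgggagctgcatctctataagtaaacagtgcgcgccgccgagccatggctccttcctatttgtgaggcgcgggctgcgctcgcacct
A match was present in 2.26% of 32851 promoters of this length. Counted by gene, over any listed start, it was present in 2.61% of 27025 genes and in 8 of the 22 S-phase genes with a promoter. A match describes these letters only. The RNAseq files were made on another build (mm9) and hold no coordinates.

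The libraries differed in make-up, and this bears on every result below. Small non-coding RNA and histone genes (802 features) took 0.801 to 6.12% of the summed FPKM in AstroEGFR*1, AstroEGFR*3, PT1, PT3 and PT4, but 29.7% in AstroEGFR*2, 34.4% in PT2 and 35.8 to 54.8% in the 3 Zfp423 libraries. The summed FPKM of 9 microglial markers was 846 in AstroEGFR*1 Zfp423 and 507 in AstroEGFR*2 Zfp423, with all 9 markers at 1 FPKM or more, against 1.28 to 40.4 elsewhere. Of 12 astrocyte markers, 11 or 12 reached 1 FPKM in the other libraries and 8 in AstroEGFR*2 Zfp423, where Fabp7 was 0.316 FPKM. The summed FPKM of 8 fibroblast or meningeal markers was 695, 667 and 5865 in AstroEGFR*1 to AstroEGFR*3, 48.0 to 528 in PT, and 4886, 6948 and 354 in AstroEGFR*1 Zfp423 to AstroEGFR*3 Zfp423. Their part in the results was not tested. In cultures, fewer cells of a type and less RNA per cell cannot be told apart. Read totals are not given in the sources used here. From the spacing of low values, AstroEGFR*3 had about 0.0723 of the depth of PT1 and PT3 about 0.0915, with the other 7 libraries at 0.507 to 0.979. This setting was picked from 13 by how many library pairs gave matching ratios (35 of 36, against 27 to 35); the estimate for AstroEGFR*3 was 0.0718 to 0.0743 in all 13, but that for PT3 ran from 0.0915 to 0.476 and is therefore uncertain. Cdkn2a, the gene of p16/p19, was listed at 3.96 to 29.1 FPKM in AstroEGFR* and 7.34 to 130 in PT, and a gene-level value does not show which exons were read. Zfp423 itself was 3.25 to 4.30 FPKM in AstroEGFR* and 9.73 to 105 in the cells with its vector.

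Across all 10 libraries the members covered a wide range of FPKM, a unit that corrects for transcript length. By mean log2(FPKM + 1) the order was Dnmt1, Uhrf2, Uhrf1, Dnmt3a, Tet2, Tet3, Tet1 and Dnmt3b. Several neighbours did not keep their places: Dnmt1 exceeded Uhrf2 in 6 of 10 libraries, Uhrf2 exceeded Uhrf1 in 7 and Tet2 exceeded Tet3 in 5. Uhrf1 exceeded Dnmt3a in 9, Dnmt3a exceeded Tet2 in 9, Tet3 exceeded Tet1 in all 10, and Tet1 exceeded Dnmt3b in 8. No member was listed at 0 in any library. The plot of FPKM by group shows the spread: the highest library was 1.69 times the lowest for Uhrf2, 5.70 times for Dnmt1, 11.2 times for Tet1 and 37.6 times for Uhrf1.

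**Figure D1:**
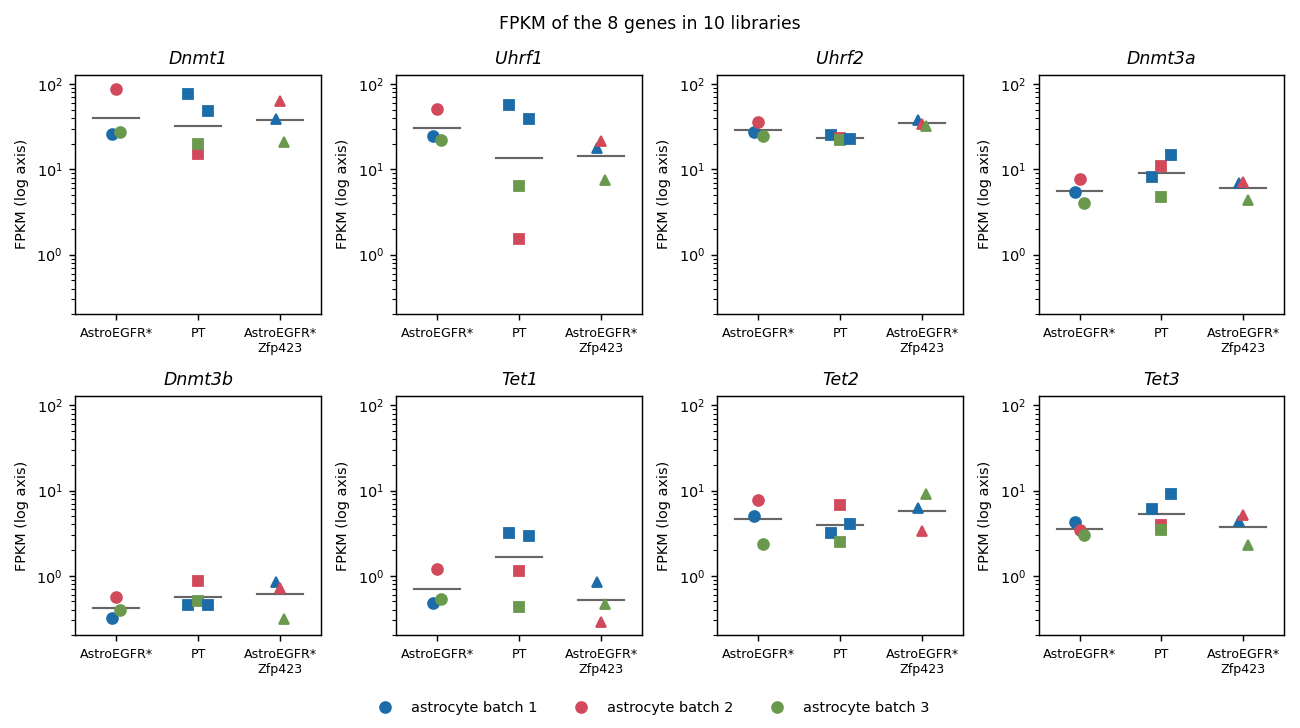
FPKM (log axis) of the 8 genes in AstroEGFR* (circles, n = 3), PT (squares, n = 4) and AstroEGFR* Zfp423 (triangles, n = 3), coloured by astrocyte batch, with grey bars at the mean taken on the log2(FPKM + 1) scale. Uhrf1 ran from 1.53 to 57.7 FPKM within PT, whereas Uhrf2 ran from 22.3 to 25.1.

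The first comparison asked how the methylation machinery differed between tumorigenic astrocytes and the tumour cells they gave rise to. No member differed between PT and AstroEGFR* beyond the spread between libraries. With limma on log2(FPKM + 1) and Benjamini-Hochberg adjustment over the 12261 features whose mean reached 1 FPKM, 152 features (1.24%) passed an adjusted p of 0.05, and 0 of the 7 members tested did. At an unadjusted p below 0.05 there were 1664 features and again 0 members. Dnmt3b was below the filter. With the astrocyte batch as a block, 475 features (3.87%) passed and still 0 of 7 members. Of these, Dnmt3a had the lowest limma adjusted p (0.276, log2 difference 0.55). The fit without the block and the permutation tests count PT1 and PT4, both of batch 1, as independent. The PT intervals and p-values below ignore that link. With PT1 and PT4 averaged, the log2 differences were -0.56 for Dnmt1, -1.70 for Uhrf1 and -0.31 for Uhrf2. They were 0.51 for Dnmt3a, 0.44 for Tet1, -0.17 for Tet2 and 0.32 for Tet3. None passed (lowest limma adjusted p = 0.544, Uhrf1). Groups did not overlap for 14.8% of features and for 0 of the 8 members.

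Dnmt1 was 26.3, 86.9 and 27.2 FPKM in AstroEGFR*1 to AstroEGFR*3. It was 76.3, 15.3, 19.8 and 48.5 FPKM in PT1 to PT4. The groups overlapped, with PT1 and PT4 high and PT2 and PT3 below every AstroEGFR*. The log2 difference of PT from AstroEGFR* was -0.27 (95% interval -1.79 to 1.25, limma adjusted p = 0.910). Its sign turned to 0.28 without AstroEGFR*2 and to 0.08 without PT2.

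Uhrf1 was 25.0, 51.9 and 21.9 FPKM in AstroEGFR*1 to AstroEGFR*3. It was 57.7, 1.53, 6.45 and 38.9 FPKM in PT1 to PT4. PT1 held the highest and PT2 the lowest level of the whole series. The log2 difference was -1.12 (-3.58 to 1.33, limma adjusted p = 0.720), an interval that spans large changes in either direction. With 1 library left out it ran from -1.79 (without PT1) to -0.28 (without PT2). Uhrf2 behaved otherwise: it was 27.5, 36.3 and 24.5 FPKM in AstroEGFR* and 25.1, 23.5, 22.3 and 22.6 in PT. Each PT lay below the AstroEGFR* of its batch, although PT1 was above AstroEGFR*3, and the log2 difference was -0.30 (-0.81 to 0.20, limma adjusted p = 0.609).

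Dnmt3a was 5.41, 7.81 and 4.05 FPKM in AstroEGFR* and 8.18, 11.1, 4.69 and 14.8 in PT. PT4 was the highest library, PT3 lay within the AstroEGFR* range, and each PT was above the AstroEGFR* of its batch. The log2 difference was 0.60 (-0.31 to 1.52, limma adjusted p = 0.574). Without PT3 it was 0.87 (0.07 to 1.68, unadjusted p = 0.0373, limma adjusted p = 0.329). Dnmt3b stayed below 1 FPKM in every library, at 0.320, 0.568 and 0.392 in AstroEGFR* and 0.454, 0.867, 0.510 and 0.456 in PT. Each PT was above the AstroEGFR* of its batch, by a fold of 1.3 to 1.53. A test that ignores the batch did not set the groups apart (exact two-sided permutation test, p = 0.286, where the smallest p for 3 against 4 is 0.0571). The ratio of Dnmt3b to Dnmt3a was 0.0592 to 0.0968 in AstroEGFR* and 0.0307 to 0.109 in PT.

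Tet1 was 0.475, 1.19 and 0.538 FPKM in AstroEGFR* and 3.18, 1.14, 0.434 and 2.95 in PT. Only PT1 and PT4 exceeded all AstroEGFR*, and they did so by a fold of 6.70 and 6.21 over AstroEGFR*1 of their batch, which was the lowest AstroEGFR*. The log2 difference between groups was 0.65 (-0.46 to 1.75, limma adjusted p = 0.625). Tet2 was 5.02, 7.80 and 2.33 FPKM in AstroEGFR* and 3.20, 6.78, 2.48 and 4.04 in PT, with a log2 difference of -0.20 (-1.19 to 0.79, limma adjusted p = 0.897) that turned to 0.13 without AstroEGFR*2. Tet3 was 4.32, 3.42 and 3.0 FPKM in AstroEGFR* and 6.09, 3.92, 3.41 and 9.17 in PT, with a log2 difference of 0.47 (-0.35 to 1.28, limma adjusted p = 0.633). Each PT was above the AstroEGFR* of its batch in Tet3. Over the tested members, Dnmt3a, Tet3 and Uhrf2 kept 1 direction in all 4 PT, that is 3 of 7, near the 39.9% of all features that did so; Dnmt3b, below the filter, was also higher in all 4.

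**Figure D2:**
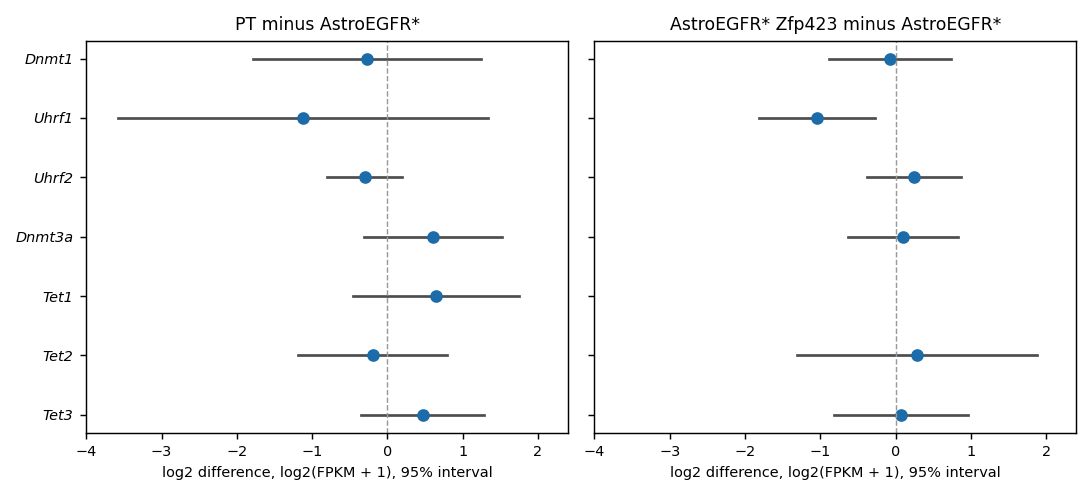
Log2 differences on the log2(FPKM + 1) scale from limma with 95% intervals, PT minus AstroEGFR* on the left (n = 4 and 3) and AstroEGFR* Zfp423 minus AstroEGFR* on the right (n = 3 and 3, astrocyte batch as a block). Members with a mean under 1 FPKM in a comparison have no point, and only Uhrf1 on the right has an interval that leaves out 0 (-1.82 to -0.27), with an adjusted p of 0.628, and without the block that interval is -2.21 to 0.12.

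Within PT, Dnmt1, Uhrf1 and Tet1 split by batch of origin, whereas Uhrf2 did not. Against the AstroEGFR* of the same batch, Dnmt1 was higher by 1.5 (log2) in PT1 and 0.86 in PT4, and its difference was -2.44 in PT2 and -0.43 in PT3. Uhrf1 was likewise higher by 1.17 in PT1 and 0.62 in PT4, with differences of -4.38 in PT2 and -1.62 in PT3. Tet1 was higher by 1.5 and 1.42 in PT1 and PT4 and differed by -0.03 and -0.10 in PT2 and PT3. There it was 1.14 against 1.19 FPKM and 0.434 against 0.538, so it was nearly level, unlike Dnmt1 and Uhrf1. The pattern of higher in PT1 and PT4 and lower in PT2 and PT3 was noticed in these same values. By sign it held for 3 of the 7 tested members and for 10.1% of all features. It has no test, since batches 2 and 3 gave 1 PT each. The pattern held for 0 of 5 tested oligodendrocyte lineage markers and 2 of 12 astrocyte markers. Sums of these markers still differed between the PT. The summed FPKM of 8 oligodendrocyte lineage markers was 1356 in PT1 and 1648 in PT4, against 145 in PT2, 130 in PT3 and 28.3 to 222 in the other 6 libraries, and that of 12 astrocyte markers was 7070 and 6993 in PT1 and PT4 against 2282 and 2704 in PT2 and PT3. With AstroEGFR* left out, 5 of 5 tested markers of the first list and 8 of 12 of the second were higher in PT1 and PT4 than in PT2 and PT3, against 30.1% of all features. Slc1a3, Slc1a2, Aldoc and S100b did not follow. Vim and Fabp7 gave 3602 and 1964 FPKM of the astrocyte sum in PT1. The part of these markers in the split was not tested.

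**Figure D3:**
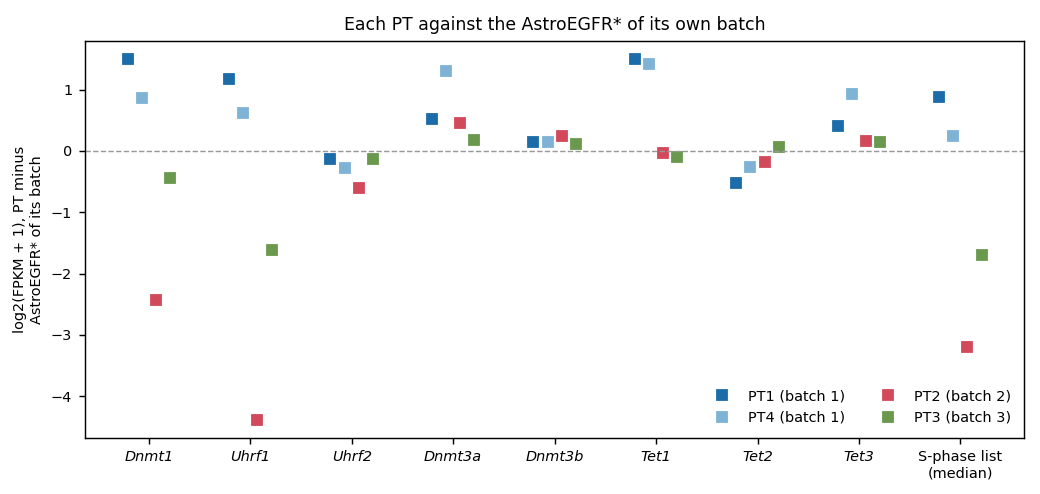
Log2(FPKM + 1) of each PT minus that of the AstroEGFR* of its batch, for the 8 genes and for the median of 26 S-phase genes. Dnmt1, Uhrf1 and the S-phase median lie above 0 in PT1 and PT4 and below 0 in PT2 and PT3, whereas the 4 PT lie between -0.61 and -0.13 for Uhrf2.

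Many genes of DNA replication showed that split. It held for 17 of 26 S-phase genes, 13 of 15 mitotic genes and 6 of 13 tested partners and recruiters of the methylation machinery. By a looser rule that leaves AstroEGFR* out, 25 of 26 S-phase genes were higher in both PT1 and PT4 than in PT2 and PT3, as were 15 of 15 mitotic genes, 9 of 13 partners and 4 of the 7 tested members (Dnmt1, Uhrf1, Tet1 and Tet3), against 30.1% of all features. The mean log2(FPKM + 1) of the S-phase genes was 5.09, 2.22, 2.97 and 4.49 in PT1 to PT4, and 4.27, 5.38 and 4.53 in AstroEGFR*1 to AstroEGFR*3. Across the 10 libraries, which share depth and batch differences, Pearson's r with this mean was 0.97 for Uhrf1 and 0.90 for Dnmt1. It was 0.41 for Uhrf2, 0.33 for Tet3, 0.30 for Tet1, 0.05 for Dnmt3a, -0.15 for Tet2 and -0.24 for Dnmt3b. These are descriptions over all 10 libraries, given with no p, and do not give the relation within PT, where 4 libraries are too few for an r. PT2 also had the high small RNA and histone share (34.4%) and PT3 an uncertain depth, and their part in the split was not tested.

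**Figure D4:**
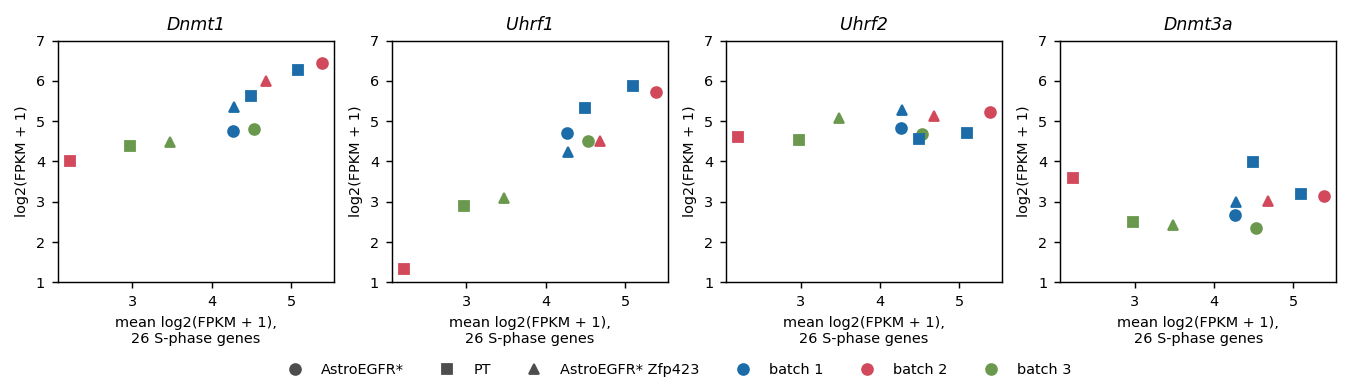
Log2(FPKM + 1) of Dnmt1, Uhrf1, Uhrf2 and Dnmt3a against the mean log2(FPKM + 1) of 26 S-phase genes in 10 libraries (shapes mark groups, colours mark astrocyte batches). Dnmt1 and Uhrf1 rise along the axis (r = 0.90 and 0.97), and Uhrf2 and Dnmt3a show little slope (r = 0.41 and 0.05).

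Plain FPKM ratios between genes of the same library, given here, do not depend on scaling between libraries. The tests below used differences of log2(FPKM + 1), which do depend on it where a gene is near or under 1 FPKM, as Tet1 and Dnmt3b are. Pcna, the clamp of the replication fork to which Dnmt1 binds, was 82.2, 127 and 44.7 FPKM in AstroEGFR*1 to AstroEGFR*3 and 135, 31.7, 36.9 and 92.3 in PT1 to PT4. The ratio of Dnmt1 to Pcna was 0.565, 0.482, 0.538 and 0.525 in PT1 to PT4, nearly level although Dnmt1 itself varied by a fold of 5.0. In AstroEGFR* it was 0.320, 0.687 and 0.608. The ratio of Uhrf1 to Pcna was not level, at 0.427, 0.0484, 0.175 and 0.421 in PT1 to PT4. Uhrf1 thus exceeded Uhrf2 by a ratio of 2.29 in PT1 and 1.72 in PT4, and was 0.0652 of it in PT2 and 0.290 in PT3. Of 6 ratios compared between PT and AstroEGFR*, none passed (exact two-sided permutation test, lowest adjusted p = 0.754), and with 3 against 4 libraries none could fall below p = 0.0571.

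The make-up of each family followed from these values. Dnmt1 gave 56.1% of the summed Dnmt FPKM in PT2, where Dnmt3a reached 40.7%, and 76.0 to 91.2% in the other 9 libraries. Tet1 gave 25.5% of the summed Tet FPKM in PT1 and 18.3% in PT4, against 3.26 to 9.62% in the other 8. These were also the 2 libraries with the high oligodendrocyte lineage sums, whose part was not tested. Tet2 gave 25.6% in PT1 and 25.0% in PT4, the lowest of the series, and 76.6% in AstroEGFR*3 Zfp423.

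**Figure D5:**
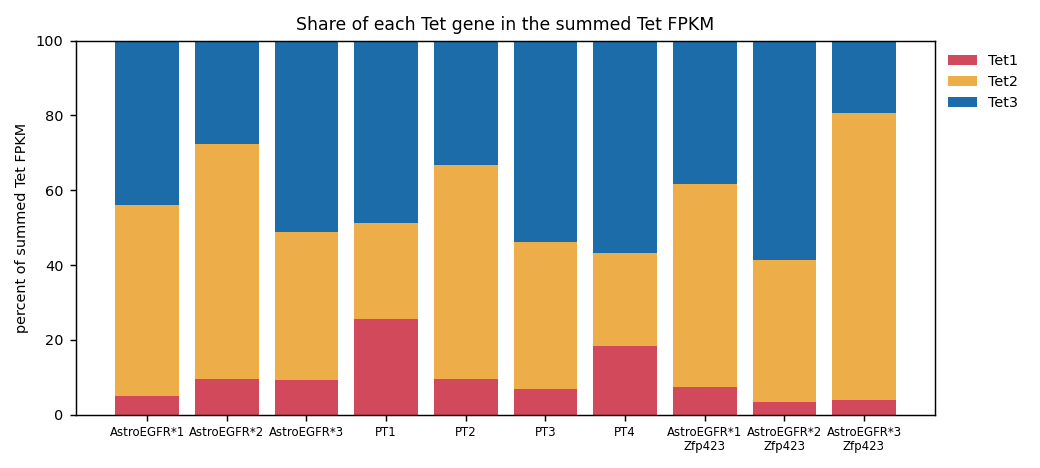
Percent of the summed Tet FPKM given by Tet1, Tet2 and Tet3 in each of 10 libraries. The Tet1 share is 25.5% in PT1 and 18.3% in PT4 and at most 9.62% elsewhere.

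The wider pathway was read from gene lists. In PT against AstroEGFR*, 0 genes of the lists of partners and recruiters (13 tested), Tet partners and CXXC proteins (6), base excision (11), methyl-CpG readers (7), methyl donor supply (9), S-phase genes (26) or mitotic genes (15) passed by limma. At an unadjusted p below 0.05 were 3 of base excision, 2 of methyl donor supply and 2 of S phase, against 1664 of all 12261 features. The median log2 difference was -1.10 for the S-phase list and -1.24 for the mitotic list, and lay between -0.30 and 0.28 for the other 5, against 0.03 over all features. With the batch block, Shmt2, a mitochondrial enzyme of one-carbon supply, passed (log2 difference 1.49, limma adjusted p = 0.0195). Shmt2 is named because it was the only gene of these 7 lists to pass. Among the cell type markers, Pdgfrb of the fibroblast or meningeal list fell in PT (log2 difference -4.14, limma adjusted p = 0.0200), and with the block Aqp4, Col1a1, Col1a2, Fn1 and Tmem119 also passed, all lower in PT. The Pdgfrb call was lost without the filter on low values, with all 10 libraries in 1 fit, with PT1 and PT4 averaged, without batch 3, and without AstroEGFR*1, AstroEGFR*3 or PT4.

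Among the partners, Hells was 11.5, 36.3 and 18.2 FPKM in AstroEGFR* and 18.7, 1.94, 3.79 and 12.3 in PT, with the same high and low PT as Uhrf1. The log2 difference was -1.41 (-3.06 to 0.23, limma adjusted p = 0.440). Cdca7, which recruits Hells to chromatin, was 13.8, 24.8 and 15.1 FPKM in AstroEGFR* and 22.5, 13.5, 17.9 and 18.4 in PT, a difference of 0.04 (-0.62 to 0.69, limma adjusted p = 0.972). Tdg, the glycosylase that excises oxidised cytosine made by Tet enzymes, was 1.40, 1.23 and 6.59 FPKM in AstroEGFR* and 3.04, 0.775, 13.9 and 3.56 in PT. Its highest values were in AstroEGFR*3 and PT3, the libraries with the lowest depth estimates, although that of PT3 is uncertain. In AstroEGFR*3 Zfp423, of the same batch, Tdg was 0.796 FPKM. The log2 difference of Tdg in PT from AstroEGFR* was 0.45 (-1.30 to 2.20, limma adjusted p = 0.857).

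The second comparison asked what the Zfp423 vector did to the same genes. Uhrf1 was lower in each culture with the vector than in the AstroEGFR* of its batch, but the difference did not pass adjustment. Uhrf1 was 17.7, 21.6 and 7.48 FPKM in AstroEGFR*1 Zfp423 to AstroEGFR*3 Zfp423, against 25.0, 51.9 and 21.9 in AstroEGFR*. The groups did not overlap, although the gap between 21.6 and 21.9 FPKM was narrow. The log2 difference was -1.04 (95% interval -1.82 to -0.27, unadjusted p = 0.0193, limma with batch as a block, adjusted p = 0.628), and an exact two-sided permutation test gave p = 0.1, the smallest that 3 against 3 allows. Whether the interval left out 0 depended on the fit: by limma without the block it was -2.21 to 0.12 (unadjusted p = 0.0718), and with all 10 libraries in 1 fit the unadjusted p was 0.311. Same-batch deviations did not go together in batches 2 and 3 (r = -0.110 and -0.261, against 0.239 in batch 1). By limma, 0 of 12366 features (0%) passed, 913 had an unadjusted p below 0.05, and without the block 2 passed (0.0162%). Groups did not overlap for 11.5% of features, 31.6% kept 1 direction in every batch, 15.2% were lower in every batch, and 4.08% were lower with an unadjusted p below 0.05. Uhrf1 was the 1 member of 6 tested in each of these counts. Against its own batch alone, the log2 difference of Uhrf1 was -0.48, -1.23 and -1.43 in batches 1 to 3. In a fit added after the microglial markers were seen, with AstroEGFR*3 Zfp423 as the only vector library and no block, so against all 3 AstroEGFR*, it was -1.90 (-3.45 to -0.34, limma adjusted p = 0.799). With the block and without AstroEGFR*2 the interval was -2.10 to 0.19, and without AstroEGFR*3 it was -1.77 to 0.07; it also held 0 without the vector library of batch 2 or 3.

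The other members gave smaller differences. Dnmt1 was 39.6, 63.0 and 21.2 FPKM with the vector, a log2 difference of -0.08 (-0.89 to 0.74, limma adjusted p = 0.953). Uhrf2 was 37.7, 33.9 and 32.6 FPKM, a difference of 0.25 (-0.38 to 0.87, limma adjusted p = 0.774). Dnmt3a was 6.93, 7.14 and 4.38 FPKM, a difference of 0.09 (-0.64 to 0.83, limma adjusted p = 0.932). These 3 overlapped AstroEGFR*. Tet2 was 6.21, 3.33 and 9.12 FPKM, higher than the AstroEGFR* of its batch by 0.26 and 1.60 in batches 1 and 3 and different by -1.02 in batch 2, so its mean of 0.28 (-1.31 to 1.88, limma adjusted p = 0.906) joins opposite changes. Tet3 was 4.37, 5.12 and 2.31 FPKM, a difference of 0.07 (-0.82 to 0.96, limma adjusted p = 0.963). Tet1 (0.847, 0.285 and 0.469 FPKM) and Dnmt3b (0.838, 0.713 and 0.307 FPKM) were below the filter.

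Replication genes differed by batch in the Zfp423 cultures. Of 26 S-phase genes, 12, 26 and 25 were below the AstroEGFR* of their batch in batches 1 to 3, with a median log2 difference of 0.10, -0.70 and -1.13. In all 3 batches 11 of 26 S-phase and 10 of 15 mitotic genes were below, against 15.2% of all features. In the fit over batches the median log2 difference was -0.56 and -0.61, against 0.02 over all features. By limma 0 of these genes passed adjustment, and 6 and 5 had an unadjusted p below 0.05, against 913 of all 12366 features. The ratio of Uhrf1 to Pcna was 0.233, 0.262 and 0.232 with the vector and 0.304, 0.410 and 0.490 without. That of Uhrf1 to Uhrf2 was 0.469, 0.636 and 0.229 with it and 0.907, 1.43 and 0.894 without. The groups did not overlap in these ratios but did in the others listed, such as Dnmt1 to Pcna. Among single features, 11.5% did not overlap, and no ratio was tested here. The part of the microglial, fibroblast and library differences in these values was not tested. Both comparisons share the 3 AstroEGFR* libraries.

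The features most like each member other than Dnmt3b, whose mean was under 1 FPKM, were found by Pearson's r over the 10 libraries among 12476 features. For Dnmt1 these were Pold1, the catalytic subunit of DNA polymerase delta (r = 0.977), the condensin subunit Smc4 (0.973) and Atad5, which unloads Pcna (0.968). For Uhrf1 they were Slfn9 (0.997), Cdca3 (0.995) and Dtl, a ubiquitin ligase receptor active in S phase (0.994). For Uhrf2 they were Cln3 (0.983), Sp3 (0.953) and Zfx (0.952), and none of its 3 was among those of Uhrf1. Dnmt3a was most like Stard7 (0.942), Fasn (0.918) and Bmp7 (0.915). Tet1 was most like Dner (0.953), Apba2 (0.941) and Nup210 (0.939). Tet2 was most like Mtx3 (0.936), Gabarapl2 (0.927) and Tceanc (0.918), and Tet3 was most like Mrpl36 (0.932), Actr1a (0.927) and Gtf2h5 (0.906). These are the highest of many values over few libraries that share depth and batch, and they have no p.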

How the data were processed

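Each of 10 cultures gave 1 RNAseq library. The deposited values are FPKM, in a single matrix. The submitters' processing notes name TopHat 1.3, Cuffnorm and mm9; the labels name a TruSeq kit and the study's methods ribosomal RNA depletion with a stranded kit, so which was used is unsettled. Groups followed the labels, and the batch of each PT a figure legend of the study. Values were taken as log2(FPKM + 1), and features with a mean under 1 FPKM were left out. The limma 3.58.1 fit (R 4.3.3, with trend) used Benjamini-Hochberg adjustment (threshold 0.05), with the batch as a block for Zfp423. It was also tested on simulated data, with changes larger than the main member estimates and no batch structure, which does not cover differences as small as these. Same-batch deviations correlated at 0.433 to 0.512 in PT and at -0.261 to 0.239 for Zfp423. Single values used exact permutation (scipy 1.17.1). Replicates are separate cultures by the study's account. Alternatives covered scaling, pseudocount, filter, block and left-out libraries. Named genes were the 8 members, pathway list genes past the threshold, Hells, Cdca7, Pcna and Tdg, and the 3 features most like each member; 1 further gene of the rule is not reported here. Marker and vector genes that check the libraries (Cdkn2a, Zfp423, Fabp7, Vim, Slc1a3, Slc1a2, Aldoc, S100b and the markers that passed) were named outside it, after their values were seen. So were Gadd45a, Gadd45b, Gadd45g, Sycp3 and Taf7l, and Shmt2, which passed only in the alternative fit with the block. Members and lists were chosen with earlier results of these data known. Promoters are from RefSeq, GRCm38.p6. FPKM hold no counts, so no counting interval is given.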

Additional observations from a re-analysis of the deposited data

Results flagged for a closer look

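Dnmt3b in PT2 stood apart from the other 3 PT. It was 0.867 FPKM in PT2 and 0.454, 0.510 and 0.456 in PT1, PT3 and PT4, and the gap to the nearest PT was 0.850 of the whole range of the group on the log2(FPKM + 1) scale. Chance alone marks about 1 group in 20 in this way. All 4 values are under 1 FPKM, AstroEGFR*2 of the same batch was also the highest AstroEGFR* at 0.568, and PT2 had a small RNA and histone share of 34.4%, whose part in the value was not tested.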

How the results depend on the processing

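No member passed the threshold under any alternative run, in either comparison. Of 112 recomputed log2 differences of members in PT, 109 kept their direction and 3 turned, and of 90 for Zfp423, 76 kept it and 14 turned. Leaving out 1 library moved PT Uhrf1 from -1.79 to -0.28, Dnmt1 from -0.67 to 0.28, Tet2 from -0.57 to 0.13, Dnmt3a from 0.38 to 0.87, Tet1 from 0.43 to 0.94, Tet3 from 0.24 to 0.64 and Uhrf2 from -0.42 to -0.15, and for Zfp423 moved Dnmt1 from -0.40 to 0.12, Dnmt3a from -0.012 to 0.20, Tet2 from -0.38 to 0.93 and Tet3 from -0.13 to 0.24. Uhrf1 under Zfp423 stayed between -1.33 and -0.85 when 1 library was left out, with adjusted p from 0.367 to 1 over all its alternatives. Without batch 3, Dnmt1 was 0.057 and Tet2 -0.38 for Zfp423. With only AstroEGFR*3 Zfp423 kept and the block dropped as well, an alternative added after seeing the data in which the lone library is assumed to vary like the others, Dnmt3a was -0.29, Tet3 -0.46 and 12 features passed. Leaving out 1 library moved the ratio difference of Tet1 to Tet3 from -0.040 to 0.38, of Dnmt1 to Pcna from -0.28 to 0.25 and of Uhrf1 to Uhrf2 from -1.46 to 0.024.

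The 152 features of PT became 475 with the replicate block, which also gave 1 gene of the 7 pathway lists, 82 with all 10 libraries in 1 fit, 61 with PT1 and PT4 averaged and 8 without batch 3. They ran from 7 to 123 with 1 library left out (7 without AstroEGFR*1, 54 without AstroEGFR*3, 97 without PT1, 70 without PT2 and 58 without PT4). For Zfp423 the 0 features became 2 with no replicate block and 0 to 60 with 1 library left out (47 without AstroEGFR*2 and 60 without AstroEGFR*2 Zfp423). The paired numbers changed no call of a member. Members whose groups did not overlap in PT numbered 0 to 1 with 1 library left out (Dnmt3b without AstroEGFR*2, Uhrf2 without AstroEGFR*3 or PT1, Dnmt3a without PT3) and 2 without batch 3 (Uhrf2 and Dnmt3a). The share of all features without overlap was not computed for these smaller sets, where groups separate more easily. These counts are therefore not a result about the members. The causes were not tested. Read totals are unknown, which limits the reading of Dnmt3b and Tet1 near or under 1 FPKM.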

Other observations

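Germline genes that promoter methylation is known to silence were nearly absent. Of 14 such genes, 3 were listed at 0 in all 10 libraries and 12 stayed below 1 FPKM in every library, the highest of these 12 at 0.722 FPKM. Sycp3, a protein of the meiotic chromosome axis, and Taf7l reached 1 FPKM, and both are named because they were the exceptions. Taf7l did so only in PT2, at 1.68 FPKM against 0.00909 in AstroEGFR*2. How many of all features stayed below 1 FPKM in every library was not counted. Sycp3, the only one above the filter, differed by 0.02 (log2, -0.77 to 0.82, limma adjusted p = 0.986) in PT against AstroEGFR*.

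Gadd45a, a stress gene linked to DNA repair and demethylation and chosen here after its values were seen, was 57.6, 25.0 and 58.6 FPKM in AstroEGFR* and 131, 511, 392 and 71.8 in PT. It was highest in PT2 and PT3, the PT with the least Dnmt1 and Uhrf1. The log2 difference was 2.22 (0.56 to 3.88, limma adjusted p = 0.226) and did not pass. Of its relatives, Gadd45b had a log2 difference of -0.81 and Gadd45g of 0.76 (limma adjusted p = 0.402 and 0.791), so only Gadd45b had the other sign. Gadd45b was 22.6, 17.8 and 15.7 FPKM in AstroEGFR* and 11.6, 12.8, 4.72 and 14.1 in PT, and Gadd45g was 43.5, 33.0 and 60.4 against 193, 10.7, 108 and 140, lowest in PT2.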
